A study of Mus musculus with 8 samples.

Results

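Oncofetal genes that act on RNA or chromatin, and genes of neural stem cells, were followed across 8 mouse arrays. The set named 9 genes: Hmga2, Igf2bp1, Igf2bp2, Igf2bp3, Lin28b, Msi1, Msi2, Nes and Prom1. A gene was measured if the platform annotation gave at least 1 row, or transcript cluster, that carried its symbol alone. By this rule 6 of the 9 were measured, on 1 row each, among 14351 symbols with a row of their own and 16317 rows in all. Igf2bp2, Lin28b and Prom1 had no row of their own and are not analysed here.

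The arrays, 1 per sample, fell into 3 groups, all of mice. There were 4 medulloblastomas of adult animals with the genotype Gli1FLAG;Ptc+/-, which carry a Rosa allele for FLAG-tagged Gli1 expressed under Math1-Cre, plus 1 disrupted allele of Ptc (Ptch1). A further 2 samples were Gli1FLAG granule neuron precursors (GNPs) at postnatal day 8, with Math1Cre and the Rosa allele, and 2 were Ptc+/- GNPs at postnatal day 8. Math1 (Atoh1) marks the granule lineage, so the transgene is driven there. The tumours are tissue and the GNPs are purified cells, and age and genotype differ along with the disease. Effects of these differences cannot be told apart, and in bulk RNA fewer cells of a type and less RNA per cell cannot be told apart either. The labels call the replicates biological without saying that each is a separate animal, so p-values measure the spread between these samples only.

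The IGF2 mRNA-binding proteins (Igf2bp1 to Igf2bp3) bind transcripts such as those of Igf2 and Myc and control where and for how long they are translated. Igf2bp1 and Igf2bp3 are abundant in embryos, mostly silent after birth, and come back in many tumours. Hmga2, a chromatin architectural protein of fetal stem cells, has the same time course, and Lin28b blocks maturation of the let-7 microRNAs, which repress Lin28b, Hmga2 and the Igf2bp genes. The Musashi proteins Msi1 and Msi2 bind mRNA in neural progenitors, Nes encodes the progenitor intermediate filament nestin, and Prom1 encodes the surface protein CD133. GNPs are the dividing, hedgehog-driven precursors from which this tumour type arises.

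Median deposited intensity ran from 134 to 310.0 in medulloblastomas, 109 to 116 in Gli1-FLAG GNPs and 125 to 283 in Ptc+/- GNPs, so intensities were quantile normalized and levels are given as log2(intensity + 1). All differences are on that scale, which understates changes of dim rows. The median standard deviation (SD) of a row was 0.299 between medulloblastomas, 0.0899 between Gli1-FLAG GNPs and 0.140 between Ptc+/- GNPs. Of 9 measured GNP markers, 4 were above every GNP array in all 4 tumours (Atoh1, Barhl1, Mycn and Ccnd1). Below every GNP array were 3 (Zic2, Neurod1 and Pax6), and 2 overlapped (Zic1 and Ccnd2). Over all rows 14.7% were above every GNP array in all 4 tumours and 16.5% were below. Atoh1 had 10.84 to 11.99 in tumours, against 9.03 to 9.43 on the GNP arrays, and Neurod1 had 10.33 to 11.56, against 11.85 to 12.12. The Y-linked gene Eif2s3y was at 8.97, 8.32, 4.55 and 8.84 in medulloblastomas 1 to 4, 4.54 and 4.12 in the Gli1-FLAG arrays and 8.99 and 9.01 in the Ptc+/- arrays, so the GNP groups were apart in this signal. The arrays give no detection call. As a rough mark of the dim end, chosen after the data were seen, the 90th percentile of 525 olfactory receptor rows lay between 5.38 and 5.80 on the 8 arrays.

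The measured members split in 3 ways in medulloblastomas. Igf2bp3 and Msi2 were lower in all 4 tumours than on all 4 GNP arrays, Hmga2 and Nes were higher in all 4, and Igf2bp1 and Msi1 overlapped. Set against the mean of both GNP groups, Igf2bp3 and Msi2 fell, Hmga2 and Nes rose, and Igf2bp1 and Msi1 did not pass (limma, Benjamini-Hochberg over all rows, threshold 0.05). That is 4 of 6 members called, where 23.4% of all rows were. Against Ptc+/- GNPs 3 of 6 passed, where 16.5% of all rows did, and against Gli1-FLAG GNPs 2 of 6 did, where 10.3% of all rows did (4.65% rising and 5.63% falling). These comparisons share their tumour arrays. Between the GNP groups, 0 of 6 members and 0% of all rows passed in limma. There, 525 of 16317 rows had an unadjusted limma p under 0.05, a smaller share than the 0.05 that chance alone would give.

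**Figure D1:**
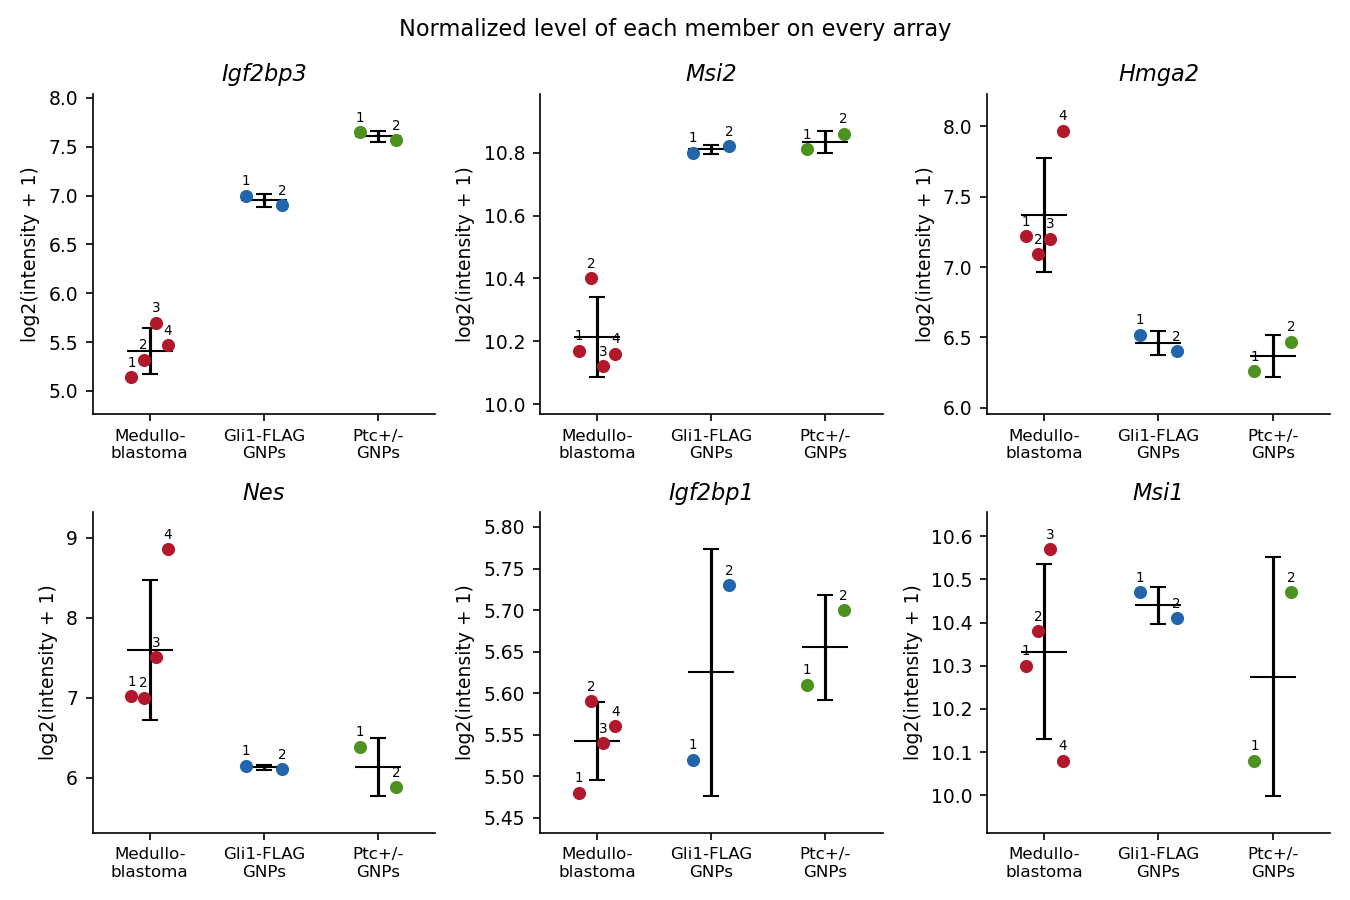
Each panel plots the log2(intensity + 1) of 1 gene on every array, numbered by replicate, for medulloblastomas (n = 4), Gli1-FLAG GNPs (n = 2) and Ptc+/- GNPs (n = 2). Horizontal bars are means, whiskers are 1 SD, and vertical scales differ between panels and do not start at 0. Tumours lie below every GNP array for Igf2bp3 and Msi2 and above every GNP array for Hmga2 and Nes.

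Igf2bp3 (transcript cluster 6953443) showed the widest separation of the 6. Its level was 5.14, 5.32, 5.70 and 5.47 in medulloblastomas 1 to 4, 7.00 and 6.90 on the Gli1-FLAG GNP arrays, with 7.65 and 7.57 on the Ptc+/- GNP arrays. The highest tumour lay 1 log2 unit or more below the lowest GNP array. Igf2bp3 fell 4.62-fold in tumours against Ptc+/- GNPs (log2 fold change -2.21 ± 0.18, SE; limma adjusted p = 0.00140) and 2.91-fold against Gli1-FLAG GNPs (-1.54 ± 0.18; adjusted p = 0.00555). It passed in all 15 alternatives of the first comparison and in 13 of 15 of the second, which missed it without Gli1-FLAG GNP replicate 1 (adjusted p = 0.0928) or 2 (0.0740). In tumours between 11.4% and 15.8% of the olfactory receptor rows were as bright or brighter, against 0.190% to 1.33% on the GNP arrays, so the tumour level is near the dim end and the folds are not exact.

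The GNP groups also lay apart for Igf2bp3. Gli1-FLAG GNPs were lower by 0.66 (SE 0.21; 95% confidence interval -1.15 to -0.18), with both arrays below both Ptc+/- GNP arrays. The unadjusted p was 0.0139 and limma's adjusted p was 1. The arrays of these groups do not overlap in 46.3% of all rows, and both Gli1-FLAG arrays lie below both Ptc+/- arrays in 24% of all rows. The order of the means was medulloblastoma (5.41 ± 0.23, SD, n = 4), Gli1-FLAG GNPs (6.95 ± 0.07, SD, n = 2) and Ptc+/- GNPs (7.61 ± 0.06, SD, n = 2). The step from tumours to Gli1-FLAG GNPs passed, and the step between the GNP groups did not.

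Msi2 (transcript cluster 6790621), the paralogue of Msi1, had levels of 10.17, 10.40, 10.12 and 10.16 in medulloblastomas. It had 10.80 and 10.82 on the Gli1-FLAG GNP arrays, with 10.81 and 10.86 on the Ptc+/- GNP arrays. The 4 GNP arrays lay between 10.80 and 10.86, and every tumour was below all of them. Msi2 fell 1.54-fold against Ptc+/- GNPs (-0.62 ± 0.14, SE; limma adjusted p = 0.0277) and 1.51-fold against Gli1-FLAG GNPs (-0.60 ± 0.14; adjusted p = 0.0411). The change is small beside that of Igf2bp3, and its call was lost on leaving out any of 5 arrays in the first comparison and any of 7 in the second (highest adjusted p = 0.157 without Ptc+/- GNP replicate 1 and 0.274 without Gli1-FLAG GNP replicate 1). It was also lost in both with only the arrays of the groups compared (limma adjusted p = 0.0673 and 0.0702). The same held with the replicate number as a block (0.0838 and 0.106). Its sign was the same in 15 of 15 alternatives of each.

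Hmga2 (transcript cluster 6777518) went the other way. Its level was 7.22, 7.09, 7.20 and 7.97 in medulloblastomas, 6.52 and 6.40 on the Gli1-FLAG GNP arrays, with 6.26 and 6.47 on the Ptc+/- GNP arrays. Medulloblastoma 4 was the highest, and the other tumours still lay above every GNP array. Of the olfactory receptor rows, 2.1% to 3.24% were as bright as Hmga2 or brighter on the GNP arrays. Hmga2 rose 2.00-fold against Ptc+/- GNPs (1.00 ± 0.26, SE; limma adjusted p = 0.0392), and the difference from Gli1-FLAG GNPs was 0.91 ± 0.26 (adjusted p = 0.0661). Without medulloblastoma 4 the differences were 0.82 and 0.73, and the second then passed (adjusted p = 0.0308). Against Ptc+/- GNPs the call was lost on leaving out any of 5 arrays (highest adjusted p = 0.237 without Ptc+/- GNP replicate 1). The call against Ptc+/- GNPs was also lost with only the arrays of the groups compared (limma adjusted p = 0.0776). With the replicate number as a block it was lost too (limma adjusted p = 0.0558). A further row names Hmga2 together with Sdccag8 and is no member. It stood at 6.81, 6.10, 6.81 and 7.17 in medulloblastomas, 7.15 and 7.10 on the Gli1-FLAG GNP arrays, with 7.61 and 7.48 on the Ptc+/- GNP arrays, a difference of -0.83 ± 0.28 from Ptc+/- GNPs (adjusted p = 0.0810), and which gene it reads is not known here.

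Nes (transcript cluster 6899039) had levels of 7.02, 7.00, 7.51 and 8.86 in medulloblastomas, 6.15 and 6.11 on the Gli1-FLAG GNP arrays, with 6.39 and 5.88 on the Ptc+/- GNP arrays. All 4 tumours lay above all GNP arrays, with medulloblastoma 4 far above the others, and 6.93% of rows had a larger SD between tumours than Nes (0.88). On the GNP arrays 1.9% to 6.48% of the olfactory receptor rows were as bright or brighter, so the size of its fold is not exact. Nes rose 2.76-fold against the mean of both GNP groups (1.47 ± 0.42, SE; limma adjusted p = 0.0411). The same difference missed the threshold against Ptc+/- GNPs (1.46 ± 0.51; adjusted p = 0.0897) and against Gli1-FLAG GNPs (1.47 ± 0.51; adjusted p = 0.110). Without medulloblastoma 4 it shrank to 1.08 in each of the 3 comparisons and passed in each (adjusted p = 0.0309 against Ptc+/- GNPs, 0.0384 against Gli1-FLAG GNPs and 0.0146 against their mean). Against their mean it was lost on leaving out any other array but medulloblastoma 2 (adjusted p up to 0.118).

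Igf2bp1 (transcript cluster 6791072) had 5.48, 5.59, 5.54 and 5.56 in medulloblastomas, 5.52 and 5.73 on the Gli1-FLAG GNP arrays, with 5.61 and 5.70 on the Ptc+/- GNP arrays. The groups overlapped, and on each array 6.29% to 12.8% of olfactory receptor rows were as bright or brighter. The difference between tumours and Ptc+/- GNPs was -0.11 (95% confidence interval -0.43 to 0.20; limma adjusted p = 0.599), and with arrays centred on their medians it was 0.28. No direction is given for a row this close to the dim end.

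Msi1 (transcript cluster 6933671), the Musashi paralogue used as a marker of neural progenitors, was bright on every array. It had 10.30, 10.38, 10.57 and 10.08 in medulloblastomas, 10.47 and 10.41 on the Gli1-FLAG GNP arrays, with 10.08 and 10.47 on the Ptc+/- GNP arrays. The groups overlapped. The difference between tumours and Ptc+/- GNPs was 0.06 (95% confidence interval -0.38 to 0.50; limma adjusted p = 0.858) and that between tumours and Gli1-FLAG GNPs was -0.11 (-0.55 to 0.33; adjusted p = 0.744).

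**Figure D2:**
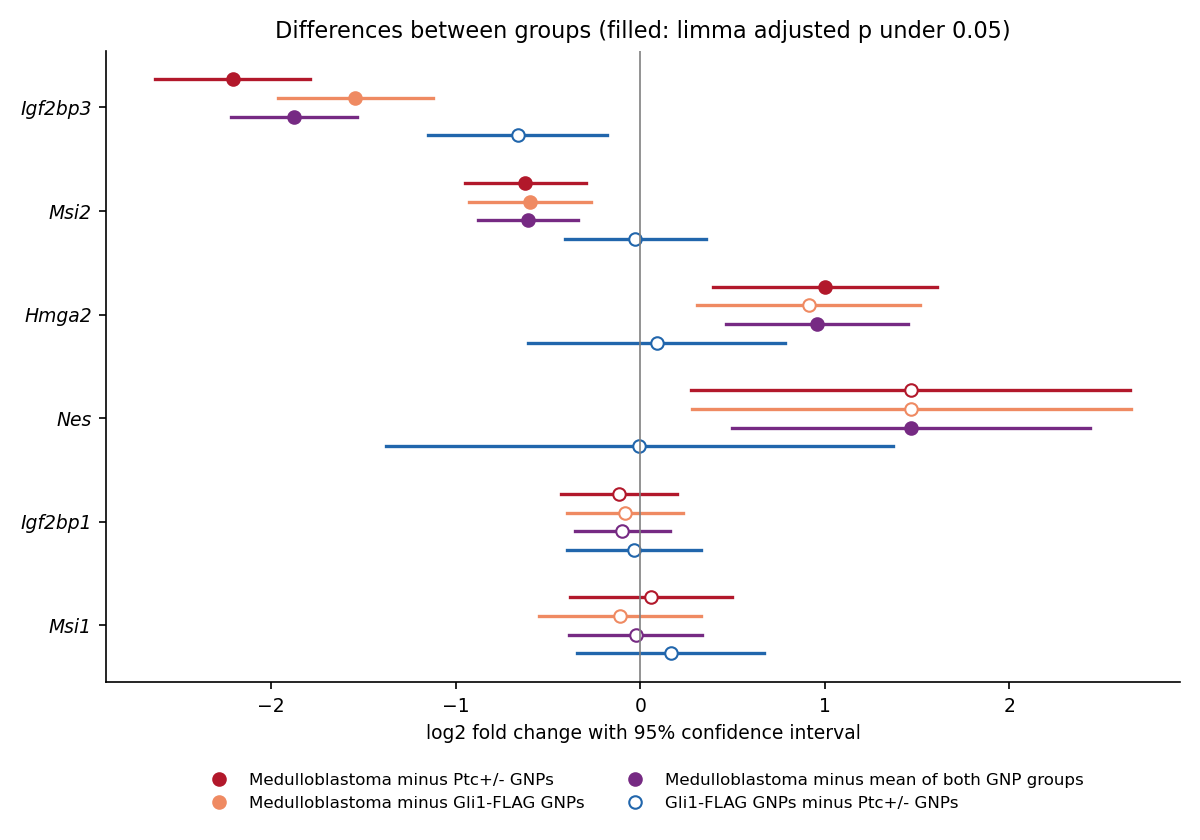
Points are log2 fold changes of the 6 genes in 4 comparisons, lines are 95% confidence intervals from limma, and filled points have an adjusted p under 0.05. Igf2bp3 and Msi2 lie left of 0 and Hmga2 and Nes right of 0 in all 3 comparisons with tumours, while every interval of Igf2bp1 and Msi1 spans 0.

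The 4 tumours were also set against the 4 GNP arrays for each of the 6 members, two-sided and without adjustment. In this exact permutation test Igf2bp3, Msi2, Hmga2 and Nes each gave p = 0.0286, the smallest that the 70 regroupings allow. In the same exact permutation test Igf2bp1 gave p = 0.143 and Msi1 p = 0.83. The arrays of the 2 kinds do not overlap in 31.2% of all rows, which all reach this p. Tumours were below all GNP arrays in 16.5% of rows and above all of them in 14.7%.

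The promoters of the 4 genes that moved are shown because the rises and falls came in pairs and the set can be compared letter by letter. Each is the 250 bases before the RefSeq start site in GRCm38.p6, from 5' to 3' on the gene's strand. They are Igf2bp3 at chr6:49214955-49215204 (minus strand), Msi2 at chr11:88718278-88718527 (minus), Hmga2 at chr10:120476470-120476719 (minus) and Nes at chr3:87970843-87971092 (plus). The table holds 3 start sites for Msi2, of which the first is used. Capitals mark CACGTG, the E-box that Myc family proteins can bind, and CCAAT on either strand.
Igf2bp3: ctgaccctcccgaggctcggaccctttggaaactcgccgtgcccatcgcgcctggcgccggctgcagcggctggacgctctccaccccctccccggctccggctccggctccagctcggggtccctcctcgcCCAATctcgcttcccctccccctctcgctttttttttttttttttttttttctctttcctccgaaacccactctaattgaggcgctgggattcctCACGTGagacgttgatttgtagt
Msi2: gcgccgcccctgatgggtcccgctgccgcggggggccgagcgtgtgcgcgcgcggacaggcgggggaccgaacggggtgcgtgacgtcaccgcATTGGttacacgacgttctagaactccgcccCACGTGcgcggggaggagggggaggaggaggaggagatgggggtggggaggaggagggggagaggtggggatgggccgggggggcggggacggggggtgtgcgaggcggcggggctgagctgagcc
Hmga2: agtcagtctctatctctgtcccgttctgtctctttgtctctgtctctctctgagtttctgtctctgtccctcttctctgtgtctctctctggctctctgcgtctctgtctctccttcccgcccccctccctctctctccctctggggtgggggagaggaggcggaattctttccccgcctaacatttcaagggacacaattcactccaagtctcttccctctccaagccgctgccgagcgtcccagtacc
Nes: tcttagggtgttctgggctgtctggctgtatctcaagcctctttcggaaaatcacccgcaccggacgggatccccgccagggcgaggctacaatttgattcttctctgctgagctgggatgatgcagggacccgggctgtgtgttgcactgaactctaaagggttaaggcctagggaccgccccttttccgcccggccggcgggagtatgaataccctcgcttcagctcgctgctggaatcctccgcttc

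CACGTG occurred once in the promoters of both genes that fell, starting 23 bases before the start site in Igf2bp3 and 126 in Msi2, and in neither promoter of the genes that rose. Among 27025 promoters of the same length 6.05% held it. CCAAT had the same split, at 118 bases in Igf2bp3 and 157 in Msi2, and 34.5% of promoters held it. The Gli consensus GACCACCCA, searched on both strands, matched in none of the 4 and in 0.211% of promoters, and TATAAA matched in none of the 4 and in 13.0%. The GC box GGGCGG, on both strands like the other motifs, matched 3 times in Msi2, 1 time in Hmga2, 2 times in Nes and 0 times in Igf2bp3, and 32.9% of promoters held it. GC content was 60.4%, 75.6%, 56.4% and 58.8% in Igf2bp3, Msi2, Hmga2 and Nes, against a median of 52.0%. These matches describe the letters only, and the motifs were chosen with the results known.

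Other genes of the same pathways were counted in the comparison of tumours with Ptc+/- GNPs, where 7.54% of all rows rose and 8.92% fell. Of 10 measured genes of Lin28 and let-7 processing 1 rose, 0 fell and 9 did not pass, with a median log2 fold change of 0.01. The 1 was Tarbp2, which encodes a partner of Dicer (9.34, 9.37, 9.30 and 9.41 in tumours, against 8.49 and 8.80 in Ptc+/- GNPs; 0.71 ± 0.14, SE; adjusted p = 0.0202). Lin28a, the paralogue of Lin28b, had 3.92, 3.78, 2.67 and 3.38 in tumours and 2.98 and 3.31 in Ptc+/- GNPs, at the dim end everywhere.

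Of 14 measured genes known as let-7 targets, Hmga2 and the Igf2bp genes left aside, 3 rose, 2 fell and 9 did not pass (median 0.03). The proto-oncogenes Myc and Mycn and the cyclin gene Ccnd1 rose. Myc had 10.60, 10.26, 10.37 and 9.78 in tumours, against 8.48 and 9.28 in Ptc+/- GNPs (1.37 ± 0.29, SE; adjusted p = 0.0226). Plagl1, which encodes an imprinted zinc finger factor of growth control, fell to 7.27, 7.75, 7.50 and 7.78 in tumours, against 9.81 and 9.98 in Ptc+/- GNPs (-2.32 ± 0.18; adjusted p = 0.00132). Its Gli1-FLAG GNP arrays stood at 9.86 and 9.89, and it kept its call in all 15 alternatives. The second that fell, outside the naming rule and chosen after its values were seen, was Arid3b (-0.63; adjusted p = 0.0350). Hmga2 and Igf2bp3 are themselves known let-7 targets and moved in opposite directions.

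Among 8 measured targets or partners of the Igf2bp, Musashi and Hmga proteins, 3 rose, 0 fell and 5 did not pass (median 0.53), and the 3 do not share a role. Besides Myc, they were Cdkn2a and Cdkn2b, cell cycle inhibitor genes of 1 locus whose repression is a known role of Hmga2 in young mouse neural stem cells. Cdkn2a had 8.08, 7.33, 9.65 and 8.76 in tumours, against 5.15 and 5.27 in Ptc+/- GNPs. All 4 tumours were above every GNP array. Igf2, the transcript from which the Igf2bp proteins take their name, had 8.07, 8.19, 7.94 and 9.27 in tumours and 10.06 and 7.06 in Ptc+/- GNPs, and did not pass. Numb, a known Msi1 target, differed by -0.30 and did not pass.

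Of 22 measured genes for other neural RNA-binding proteins 0 rose, 3 fell and 19 did not pass (median -0.26). Elavl2, a neuronal mRNA stabiliser gene, fell by 1.21 (adjusted p = 0.00812). Khdrbs2, a splicing factor gene, fell by 2.40, to 4.49, 5.09, 4.13 and 5.02 in tumours, against 7.02 and 7.13 in Ptc+/- GNPs (adjusted p = 0.00498). Celf2 fell by 0.92 (adjusted p = 0.0431).

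Of 18 measured neural stem and radial glial genes other than the members, 6 passed, 3 in each direction (median -0.16). Sox1 rose by 1.85 (log2 fold change 1.85 ± 0.21, SE; adjusted p = 0.00406) and Sox3 by 1.51 (adjusted p = 0.00242), both genes of the SoxB1 factors of neural progenitors. The chemokine receptor gene Cxcr4 rose by 0.84 and the laminin receptor gene Itga6 fell by 1.91. The other genes that fell were Pax6 (-1.38) and Tnc (-2.91), which the naming rule did not pick and which were chosen after their values were seen. Sox2, of the same SoxB1 family and singled out after its values were seen, had 7.02, 7.15, 4.82 and 8.89 in tumours and 8.42 and 8.46 in Ptc+/- GNPs, and did not pass. Vim, which encodes the intermediate filament that nestin pairs with, had 10.79, 10.76, 9.93 and 11.08 in tumours, against 11.43 and 11.31 in Ptc+/- GNPs, and did not pass.

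With 1 array left out in turn, Plagl1, Cdkn2b and Sox3 kept their calls against Ptc+/- GNPs in all 8 fits. Itga6, Khdrbs2 and Sox1 kept theirs in 7, Ccnd1, Cdkn2a, Cxcr4, Elavl2 and Mycn in 6, Myc in 5, Tarbp2 in 4 and Celf2 in 1. Over these fits 0 to 1 genes of Lin28 and let-7 processing rose and 0 fell. Of let-7 targets 0 to 3 rose and 1 to 3 fell, and of targets or partners 1 to 4 rose and 0 fell. Of other RNA-binding genes 0 to 1 rose and 0 to 5 fell, and of stem and radial glial genes 1 to 3 rose and 0 to 3 fell. Without Ptc+/- GNP replicate 1 the counts were at the low end in every list, and without medulloblastoma 3 the 5 RNA-binding genes fell. With the replicate number as a block, 6 stem and radial glial genes fell.

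**Figure D3:**
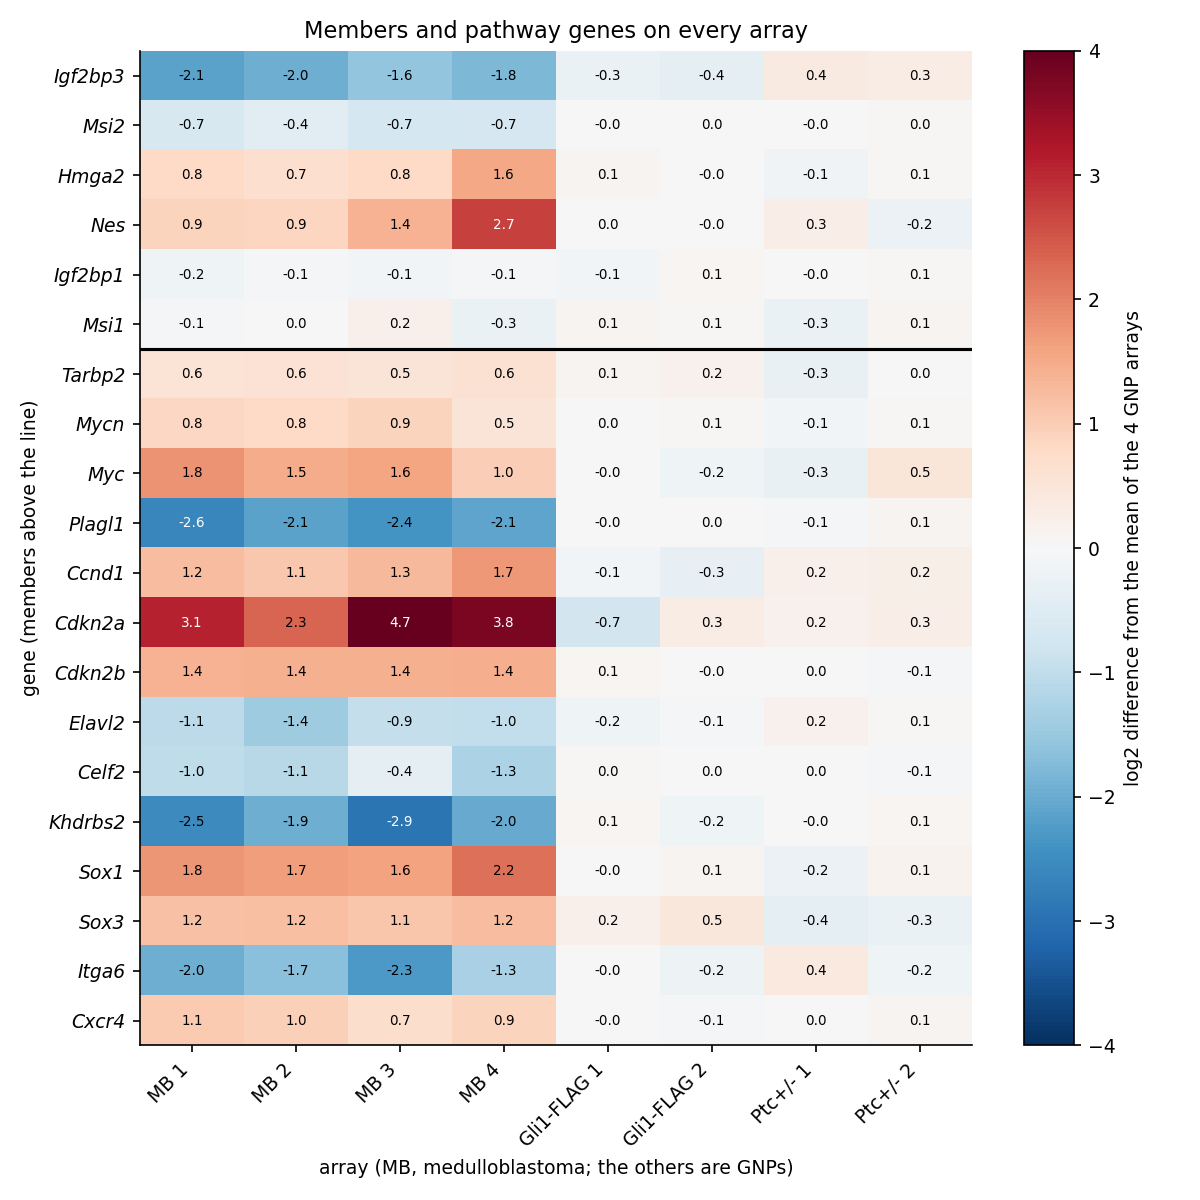
Each cell gives the log2 difference of 1 gene on 1 array from the mean of the 4 GNP arrays, for the 6 measured genes (above the line) and the named pathway genes. The 4 tumour columns at the left carry the colour, and the GNP columns lie closer to 0. Within the row of Nes and within that of Hmga2, the deepest cell is that of medulloblastoma 4.

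Markers of other cells are given beside these results as sums of normalized linear intensity over each list. The 11 endothelial markers summed to 1093 to 1280 in tumours, against 3160 to 3189 in Gli1-FLAG GNPs and 2026 to 5165 in Ptc+/- GNPs, and 7 of 11 fell against Ptc+/- GNPs. The 10 microglial markers summed to 3044 to 7275 in tumours, against 1905 to 2194 in Gli1-FLAG GNPs and 1611 to 1946 in Ptc+/- GNPs. Their sum was highest in medulloblastoma 4, as were Nes and Hmga2. Of these 10 markers 3 rose and 0 fell against Ptc+/- GNPs. Against Gli1-FLAG GNPs 3 rose and 1 fell, which was P2ry12 (-1.28; limma adjusted p = 0.045). The 8 astrocyte and Bergmann glia markers ranged from 1434 to 7961 in tumours, against 6173 to 6656 in Gli1-FLAG GNPs and 4043 to 5661 in Ptc+/- GNPs. The 8 oligodendrocyte lineage markers ranged from 2434 to 5315, against 3252 to 3413 in Gli1-FLAG GNPs and 2216 to 2241 in Ptc+/- GNPs. Both glial sums were highest in medulloblastoma 2, at 7961 and 5315, against 5614 and 3275 in medulloblastoma 4. Within the astrocyte and Bergmann glia list, Fabp7 was highest in medulloblastoma 4 (8.18, 7.00, 4.02 and 10.91 in medulloblastomas 1 to 4). S100b was highest there too (8.34, 9.21, 5.76 and 9.98), and the other measured genes of that list were highest in medulloblastoma 2. Within the oligodendrocyte list medulloblastoma 4 had the highest Olig1, Olig2 and Cspg4 of the 4 tumours, and the lowest Mog. The part of these cells in the levels of Nes, Hmga2 or any other member was not tested. The 6 pericyte markers summed to 774 to 899 in tumours, against 1330 to 1366 in Gli1-FLAG GNPs and 821 to 1966 in Ptc+/- GNPs. Against each GNP group 0 of 6 passed the threshold. Against the mean of both groups 1 fell, which was Rgs5 (-0.87; limma adjusted p = 0.0468). The 3 ependymal markers summed to 126 to 168, against 165 to 166 in Gli1-FLAG GNPs and 138 to 157 in Ptc+/- GNPs. The 7 Purkinje and interneuron markers summed to 314 to 5870, against 633 to 641 in Gli1-FLAG GNPs and 579 to 588 in Ptc+/- GNPs, highest in medulloblastoma 2. The 7 mature granule neuron markers summed to 3457 to 10890, against 4874 to 5191 in Gli1-FLAG GNPs and 4263 to 5128 in Ptc+/- GNPs. The 9 GNP markers summed to 19600 to 25840, against 19730 to 20230 in Gli1-FLAG GNPs and 19530 to 21280 in Ptc+/- GNPs. Of the 4 tumours, medulloblastoma 4 had the lowest of both sums (3457 and 19600).

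The genes whose profiles lay closest to each called member were found by the root mean square difference of centred log2 levels over the 8 arrays, among 14350 other genes. Closest to Msi2 were Tspan13 (0.0341), Capn7 (0.0587) and Mtmr9 (0.0623), and closest to Hmga2 were Abhd17a (0.0986), Vti1b (0.114) and Pdcd2 (0.122). Closest to Nes were Itga9 (0.113), Spats2l (0.257) and Mrps12 (0.285), and closest to Igf2bp3 were Optc (0.173), Ttc23 (0.185) and Enox2 (0.200). Itga9 followed Nes through the tumours, with 7.05, 6.74, 7.29 and 8.72 in medulloblastomas 1 to 4.

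**Figure D4:**
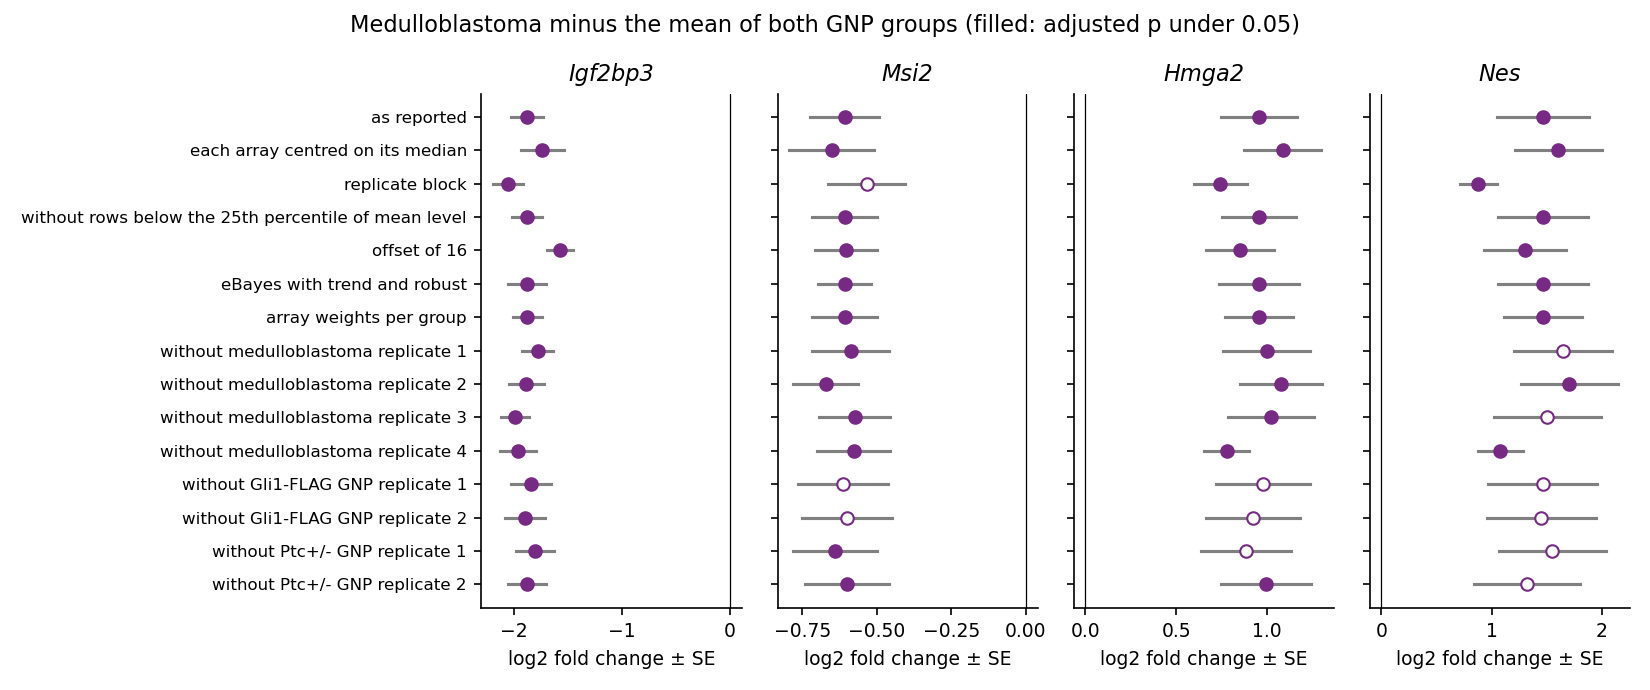
Points are the log2 fold changes of the 4 called genes in medulloblastomas against the mean of both GNP groups as reported and under each alternative, with lines of 1 SE and filled points where the adjusted p is under 0.05. No point crosses 0, Igf2bp3 is filled throughout, and Nes is open in 6 of 8 fits that leave out an array.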

How the data were processed

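RNA from 8 mouse samples was hybridised to Affymetrix whole-transcript arrays after rRNA reduction and amplification, per the labels' protocols. The deposited table gives 1 linear intensity per transcript cluster and array. The submitters' processing notes name genome build mm8, while the background correction and probe summary behind the values are not stated in the labels or the file. Because array medians differed, intensities were quantile normalized, floored at 0 and tested as log2(intensity + 1).

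Limma 3.58.1 in R 4.3.3 fitted 3 group means to all 8 arrays with lmFit and eBayes (2.45 prior and 5 residual degrees of freedom), two-sided, with Benjamini-Hochberg adjustment over all 16317 rows. It was tested on simulated data in which all groups had the same spread per row, so the unequal spreads seen here were not tested. Rows were named through the platform annotation (14551 with 1 symbol, 1146 with several, 620 unnamed here), and a gene is its row with the highest mean. Promoters came from RefSeq (GRCm38.p6), where 4 of the 6 measured members matched, and were searched for 5 motifs. The members and lists were chosen with earlier results of these data known. The text names all measured members, up to 4 called genes per pathway list with the lowest p against Ptc+/- GNPs, and the 3 closest profiles per called member. Outside this rule, Arid3b, Pax6, Tnc, Sox2, Lin28a, Igf2, Numb, Vim, Eif2s3y and the single marker genes were chosen after their values were seen. Alternatives covered scaling, arrays in the fit, the replicate block, dim rows, an offset of 16, eBayes settings, array weights and each array left out. The number of arrays limits the precision.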

Additional observations from a re-analysis of the deposited data

Results flagged for a closer look

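Hmga2 was set apart by 1 tumour. Among its 4 medulloblastoma levels (7.22, 7.09, 7.20 and 7.97) the gap from medulloblastoma 4 to the nearest other tumour was 0.845 of the whole range, above Dixon's critical value at 95% for 4 samples. Pdcd2, one of the closest profiles to Hmga2, had levels of 9.01, 9.03, 8.99 and 9.53 and a ratio of 0.915, also because of medulloblastoma 4. Since Pdcd2 was picked for its likeness to Hmga2, the pair is not independent. Of 32 genes examined 2 were set apart in this way, and chance gives about 1 in 20. Without medulloblastoma 4, Hmga2 still rose against Ptc+/- GNPs, by 0.82.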

How the results depend on the processing

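Of 564 values recomputed for the members and the named pathway genes, 468 kept their direction and their side of the threshold, 71 kept the direction and lost the call, 8 gained it and 17 changed sign, all of them values that had not passed. With each array centred on its median, Igf2bp1 differed by 0.28 against Ptc+/- GNPs, 0.21 against Gli1-FLAG GNPs and 0.24 against their mean, and Igf2bp1, Msi2 and Nes differed by 0.0767, 0.0922 and 0.0857 between the GNP groups. Leaving out 1 array in turn also turned signs: Msi1 ran from -0.1421 to 0.256 against Ptc+/- GNPs and from -0.1264 to 0.0741 against the mean, and Igf2bp1 from -0.1896 to 0.0268 against Gli1-FLAG GNPs. Between the GNP groups Hmga2 ran from -0.0149 to 0.1912, Igf2bp1 from -0.1407 to 0.0756, Msi1 from -0.0314 to 0.3638 and Nes from -0.2543 to 0.2406. With only the arrays of the groups compared, 1 member and 1197 rows passed against Ptc+/- GNPs (3 and 2687 as reported), 1 and 811 against Gli1-FLAG GNPs (2 and 1677), and 4 rows between the GNP groups (0). Fewer arrays then estimate the spread. With array weights per group 4 members and 3566 rows passed against Gli1-FLAG GNPs and 3 rows between the GNP groups, and eBayes with trend and robust settings called 1 row there. The replicate numbers showed no sign of pairing the samples (correlation of deviations across rows -0.00561, -0.0728 and -0.0110 for the 3 pairs of groups). Only replicates 1 and 2 enter this check, so it cannot exclude a pairing. With the replicate number as a block, in which medulloblastomas 3 and 4 have no partner, 1 member passed against Ptc+/- GNPs and 1 against Gli1-FLAG GNPs (1066 rows), and 1 row passed between the GNP groups. With 1 array left out, the count of members ran from 1 to 4 against Ptc+/- GNPs, 0 to 3 against Gli1-FLAG GNPs and 1 to 4 against the mean. The count of rows ran from 128 to 2898, from 62 to 1980, from 1300 to 3987 and, between the GNP groups, from 0 to 4. The lowest row counts for tumours came without 1 of the 2 arrays of a GNP group. The cause of these and the other shifts was not tested. No member had other rows of its own to try. Signal near the dim end limits Igf2bp1 everywhere, Igf2bp3 in tumours and, to a lesser degree, Nes and Hmga2 on the GNP arrays.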
